A study of Mus musculus with 18 samples.

Results

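The data described here are the Hepa1-6 arm of an Ncor1 knockout study, 9 of the 18 RNA sequencing libraries of the series; the other 9 come from the melanoma line B16. Hepa1-6 is a cultured mouse hepatoma line. Membership was set by the cell line label alone, and no measured value entered the choice. Libraries came in 3 groups of 3: cells carrying the Ncor1 guide sgNcor1-1 and cells carrying the Ncor1 guide sgNcor1-2, both labelled as Ncor1 knockout, and cells carrying the control guide sgCtrl, labelled wild type. All 3 groups are the same line, and each guide group was weighted equally against sgCtrl. The labels do not say whether a group is 1 clone or a pool of edited cells, nor whether its 3 libraries are separate cultures. The spread behind the p-values is thus that between libraries and may be technical in part or whole. Libraries are called by guide and replicate number, such as sgNcor1-1 2, and the labels do not say what a number stands for.

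NCOR1 is a nuclear receptor corepressor: it docks on receptors such as LXR, the retinoic acid and thyroid hormone receptors and REV-ERB, and brings histone deacetylase 3 to their target genes, which are then held at a low level of transcription. In mouse liver the NCOR1 and HDAC3 complex is known for restraining genes of lipid synthesis. The series title asks about a role of NCOR1 in DNA mismatch repair and about sensitivity of NCOR1-deficient tumours to immune checkpoint therapy.

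The line label matched its markers in part. All 15 hepatocyte markers had counts, and their summed level was 1173 to 1748 CPM (counts scaled to 1 common library total) in the knockout libraries and 1154 to 1259 CPM in the sgCtrl libraries. Alpha-fetoprotein (Afp), the fetal liver protein, reached 172 to 400.0 CPM in knockout libraries and 98.0 to 139 CPM in sgCtrl. Several secreted proteins of mature liver were near 0 in every library, among them Apoa1, Ttr, Serpina1a and Ahsg. Melanocyte markers summed to 0.948 to 3.52 CPM in knockout and 1.65 to 3.95 CPM in sgCtrl, with Tyrp1 and Dct at 0. Of the fibroblast markers, Lum and Thy1 were at 0 and nearly all of the sum was Dcn, at 699 to 1581 CPM in knockout and 1150 to 1390 CPM in sgCtrl. The leukocyte sum, 15.6 to 106 CPM in knockout and 33.6 to 96.8 CPM in sgCtrl, was mostly Cd68. Endothelial markers summed to 2.19 to 24.6 CPM in knockout and 5.02 to 15.8 CPM in sgCtrl.

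The libraries held 17689324 to 30819681 counts. The 3 libraries numbered 1 stood apart from the rest. On the first principal component, which took 53.3% of the variance, sgNcor1-1 1 lay at -71.9, sgNcor1-2 1 at -70.1 and sgCtrl 1 at -27.4, while the other 6 libraries lay between 14.2 and 37.2. Results are therefore given over all 9 libraries and also inside each number, as the log2 difference of each knockout library from the sgCtrl library of the same number. Each gene has 6 such differences, 2 per number, and the value given for a number is the mean over both guides. Numbers 1, 2 and 3 share no library. Across the 12458 genes tested these differences correlated weakly between numbers: Pearson r was 0.32 for numbers 1 and 2, 0.28 for 1 and 3 and 0.32 for 2 and 3. The sign was shared by 63%, 55.2% and 53.8% of genes. These are descriptions over genes, which are not independent. A 2-fold difference or more was seen in 1729 genes inside number 1, 1386 inside number 2 and 637 inside number 3.

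Ncor1 itself, on chromosome 11 from 62315663 to 62457414 (GRCm38.p6, minus strand), was measured first as a check of the labels. It had 197, 130.4 and 177 CPM in the sgNcor1-1 libraries and 149, 140.4 and 186 CPM in the sgNcor1-2 libraries, against 266, 264 and 222 CPM in the sgCtrl libraries. All 6 knockout libraries lay below all 3 controls. The log2 fold change was -0.62 (SE 0.17) and missed the threshold (adjusted p = 0.223, edgeR quasi-likelihood test with Benjamini-Hochberg adjustment). With sgNcor1-1 alone it was -0.57 and with sgNcor1-2 alone -0.66 (adjusted p = 0.564 and 0.440, edgeR). Inside numbers 1, 2 and 3 the difference was -0.64, -0.96 and -0.29. The RNA level gives no measure of NCOR1 protein.

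Over all genes, 25 of 12458 (0.201%) passed the test in knockout against control (edgeR, adjusted p under 0.05). Of these, 7 rose (0.0562% of genes tested) and 18 fell (0.144%). For each of the 25, the knockout and control libraries did not overlap. All 6 differences inside the numbers then have the same sign, which adds no separate evidence. Over all genes tested, 9.13% had groups that did not overlap (3.89% higher in knockout and 5.24% lower) and 24.1% had 6 differences of one sign. Taken alone, sgNcor1-1 gave 6 calls (0.0482%) and sgNcor1-2 gave 10 (0.0803%), both against the same 3 controls. The guides were also set against each other for the 25 genes, and 0 differed even at an unadjusted p under 0.05, a level that 0.0722% of all genes reached. That share is far under the 5% the threshold allows. Deviations of same-numbered libraries correlated at 0.91, 0.67 and 0.75 between the guides, and a fit without a replicate block counts such shared variation as spread. The comparison thus had little power and does not show that the guides act alike. In knockout against control, 1383 genes had an unadjusted p under 0.05 without the block and 3045 with it (edgeR). The 95% interval of the guide difference was -0.73 to 0.64 log2 units for Adcy8, -0.75 to 0.62 for Pcx and -1.73 to 0.02 for Msln.

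**Figure D1:**
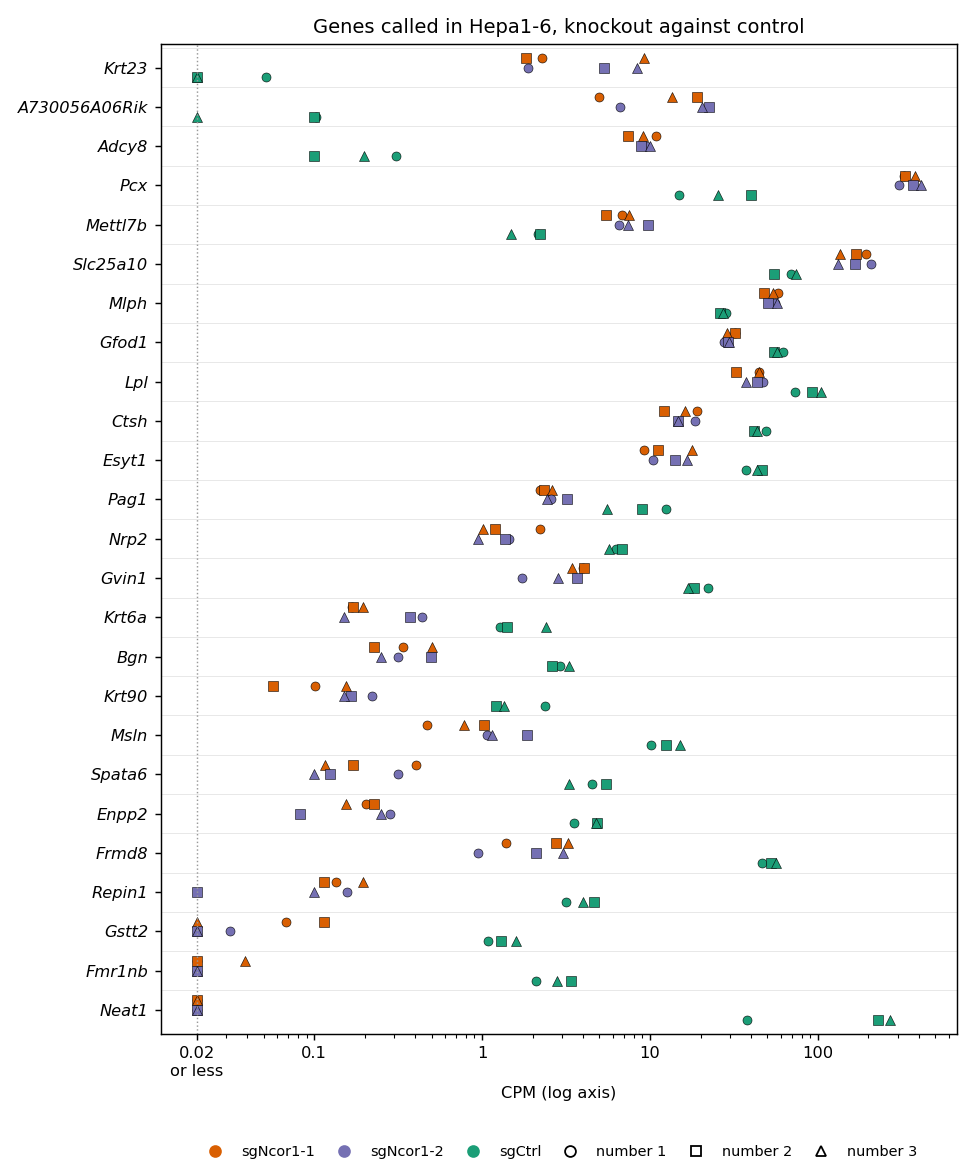
Level of each of the 25 called genes in the 9 Hepa1-6 libraries, in CPM on a log axis (values of 0.02 CPM or less, zeros included, are drawn at 0.02). Colours give the guide (sgNcor1-1, sgNcor1-2, sgCtrl), shapes the replicate number, and genes run from the highest to the lowest fold change. The 6 knockout libraries and the 3 controls do not overlap for any gene shown, as with Pcx at 304 to 412 CPM in knockout and 14.9 to 40.0 CPM in sgCtrl.

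Among the genes that rose, Adcy8 and Pcx had the smallest adjusted p. Adcy8 encodes adenylyl cyclase 8, a calcium-stimulated enzyme that makes cyclic AMP, and lies on chromosome 15 from 64699035 to 64922296. It had 10.8, 7.42 and 9.10 CPM in sgNcor1-1 and 9.47, 8.82 and 9.97 CPM in sgNcor1-2, against 0.308, 0.100 and 0.199 CPM in sgCtrl. Every knockout library was far above every control, whatever its number. On the log2 scale the fold change reached 5.48 (SE 0.39, adjusted p = 0.00131, edgeR), with 5.46 for sgNcor1-1 and 5.51 for sgNcor1-2. Inside numbers 1, 2 and 3 the difference was 4.70, 5.45 and 5.07. Of 26 tested genes of cyclic AMP signalling, Adcy8 was the 1 called, beside 0.0562% of all genes called higher. The list median was -0.01, beside 0.02 over all genes tested, with 13 members above 0 and 13 below. The next by p were Rapgef3, a cyclic AMP-activated exchange factor, at -0.33 (SE 0.15), the transcription factor gene Creb1 at -0.29 (SE 0.14) and the phosphodiesterase gene Pde8b at -0.89 (SE 0.43), with adjusted p of 0.467, 0.484 and 0.486 (edgeR).

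Pcx encodes pyruvate carboxylase, the mitochondrial enzyme that turns pyruvate into oxaloacetate. It had 324, 331 and 378 CPM in sgNcor1-1 and 303.5, 367 and 412 CPM in sgNcor1-2, against 14.9, 40.0 and 25.3 CPM in sgCtrl. The lowest knockout library was well above the highest control. A log2 fold change of 3.72 resulted (SE 0.32, adjusted p = 0.00177, edgeR), and it was 4.39, 3.12 and 3.96 inside numbers 1, 2 and 3. Slc25a10, the mitochondrial dicarboxylate carrier that exports malate and succinate in exchange for phosphate, had 194, 169 and 136 CPM in sgNcor1-1 and 206, 166 and 132 CPM in sgNcor1-2, against 69.6, 54.9 and 74.1 CPM in sgCtrl. The groups did not overlap, and number 3 held the lowest knockout library of each guide. Its fold change was 1.34 on the log2 scale (SE 0.20, adjusted p = 0.0403, edgeR), with 1.52, 1.61 and 0.86 inside the numbers. Both belong to a list of pyruvate use and anaplerosis with 27 tested members, of which 2 were called, both higher (0.0562% of all genes were called higher). DESeq2 called 4 members higher and limma-voom 2. At an unadjusted p under 0.05 in edgeR, 8 lay higher and 0 lower. The list median was 0.29 over all libraries and 0.43, 0.37 and 0.02 inside numbers 1, 2 and 3. All 6 differences were above 0 for 10 of the 27 (37.0%, beside 11.2% of all genes tested). Pdk1, a kinase that shuts off pyruvate dehydrogenase, had 86.4, 66.1 and 86.4 CPM in sgNcor1-1 and 87.8, 74.1 and 89.8 CPM in sgNcor1-2, against 31.4, 45.5 and 39.4 CPM in sgCtrl, and its log2 fold change of 1.08 (SE 0.18) missed the threshold (adjusted p = 0.0590, edgeR). Pklr, the pyruvate kinase of liver and red cells, stood at 0.91 (SE 0.17, adjusted p = 0.116, edgeR). Pdk1 and Pklr passed with a replicate block, as the last section gives.

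The other 5 genes that rose were A730056A06Rik, Krt23, Mettl7b, Mlph and Slc25a10, the last given above. A730056A06Rik, a long noncoding RNA on chromosome 7, had 4.99, 19.1 and 13.5 CPM in sgNcor1-1 and 6.67, 22.5 and 20.4 CPM in sgNcor1-2, against 0.103, 0.100 and 0 CPM in sgCtrl. The controls held 4 counts in all and the knockout libraries 1995, so the fitted log2 fold change of 7.63 (SE 0.88, adjusted p = 0.0100, edgeR) depends on the prior count. Krt23, a type I keratin, had 2.26, 1.83 and 9.18 CPM in sgNcor1-1 and 1.89, 5.32 and 8.33 CPM in sgNcor1-2, against 0.0513, 0 and 0 CPM in sgCtrl. With 691 counts in the knockout libraries and 1 in the controls, the ratio of levels was 276 (95% exact interval 49.4 to 10900, counting error only; adjusted p = 0.0439, edgeR). Mettl7b, a methyltransferase-like protein of the endoplasmic reticulum and lipid droplets, had 5.48 to 9.68 CPM in knockout and 1.49 to 2.20 CPM in sgCtrl (log2 fold change 1.88, SE 0.28, adjusted p = 0.0403, edgeR). Mlph, melanophilin, which links Rab27a on pigment granules to myosin, had 47.6 to 57.5 CPM in knockout and 26.0 to 28.4 CPM in sgCtrl. Its fold change was 0.98 on the log2 scale (SE 0.14, adjusted p = 0.0350, edgeR), and its difference was close to 1 inside each number, at 0.99, 0.91 and 1.02.

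Among the genes that fell, Frmd8 and Neat1 are neighbours on chromosome 19. Frmd8 (5850974 to 5875269, minus strand) encodes the FERM domain protein iTAP, which keeps the iRhom and ADAM17 sheddase complex on the cell surface. It had 1.38, 2.74 and 3.27 CPM in sgNcor1-1 and 0.944, 2.1 and 3.04 CPM in sgNcor1-2, against 46.4, 52.6 and 56.0 CPM in sgCtrl. The highest knockout library was far under the lowest control. The fold change was -4.54 on the log2 scale (SE 0.35, adjusted p = 0.00163, edgeR), and -5.24, -4.40 and -4.12 inside numbers 1, 2 and 3. It was the 1 called gene of 14 tested in the iRhom and ADAM17 list, beside 0.144% of all genes called lower (list median -0.17; 2 members above 0 and 12 below). Timp3, the ADAM17 inhibitor, stood at -0.84 (SE 0.26) and Tnfrsf1b, the TNF receptor 2 that the sheddase cleaves, at -0.64 (SE 0.24), with adjusted p of 0.287 and 0.367 (edgeR). Timp3 passed with a replicate block, as the last section gives. In bulk samples, fewer cells expressing a gene and less RNA per cell cannot be told apart.

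Neat1, the long noncoding RNA that scaffolds paraspeckles (5824708 to 5845480, minus strand), had 0 counts in all 6 knockout libraries, against 37.7, 228 and 269.9 CPM in sgCtrl. The control libraries numbered 2 and 3 were several times higher than number 1, and none was near 0. Against a floor of 3 counts per library, at most 0.171 CPM, knockout lay at least 1042-fold lower than the mean control and at least 220-fold lower than the lowest control (adjusted p = 0.0179, edgeR). Neither guide passed alone (adjusted p = 0.0999 for sgNcor1-1 and 0.0813 for sgNcor1-2, edgeR). The call was lost without sgCtrl 2, sgCtrl 3 or sgNcor1-1 2, with an adjusted p of up to 0.127. No gene of a paraspeckle protein was called, beside 0.201% of all genes tested. Of 15 list members tested 11 were above 0, with Sfpq at 0.65 (SE 0.30, adjusted p = 0.459, edgeR). Malat1, the nuclear long noncoding RNA next to Neat1, had 82.3, 64.3 and 76.6 CPM in sgNcor1-1 and 83.6, 70.3 and 137 CPM in sgNcor1-2, against 137, 221 and 198 CPM in sgCtrl. Its groups came close, sgNcor1-2 3 against sgCtrl 1, and its log2 fold change of -1.13 (SE 0.23) missed the threshold (adjusted p = 0.136, edgeR).

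Pcx also lies on chromosome 19 (4510472 to 4621752, plus strand), and its start is 1335.0 kb from that of Neat1 and 1364.8 kb from that of Frmd8. The starts of Neat1 and Frmd8 are 29.8 kb apart. Between the starts of Pcx and Frmd8 lie 54 other tested genes, and edgeR called 0 of them (0.201% of all genes were called). At an unadjusted p under 0.05, 2 of the 54 lay higher and 3 lower (edgeR), while DESeq2 called 1 and limma-voom 0. Their log2 fold changes ran from -1.29 for Cd248 to 1.11 for Tmem151a with a median of 0.05, beside 0.02 over all genes tested. Within 250 kb of Frmd8, the 26 genes not called ran from -1.13 for Malat1 to 1.25 for Tm7sf2. The called genes of this stretch thus lay in both directions among neighbours not called in this fit. With a replicate block, edgeR called at least Malat1 (-1.14, adjusted p = 0.0206) and Fosl1 (-0.67, adjusted p = 0.0404) among these neighbours, both lower. Elsewhere, the starts of 2 further called pairs lay within 2 Mb of each other: Krt6a and Krt90 at 131.4 kb on chromosome 15, and Esyt1 and Mettl7b, which differ in direction, at 435.1 kb on chromosome 10.

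**Figure D2:**
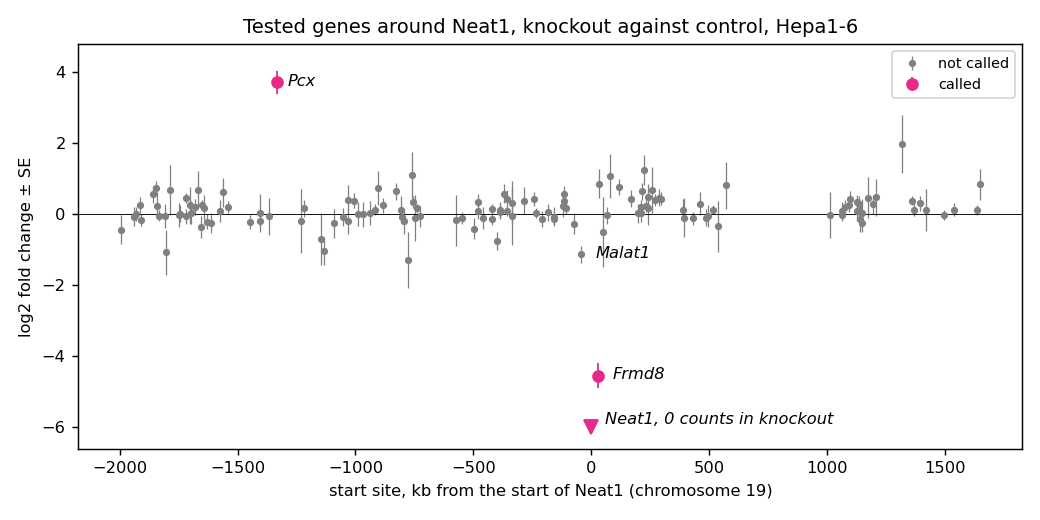
Log2 fold change, knockout against control, with SE bars, of tested genes by the distance of their start from that of Neat1 on chromosome 19, in kb. The triangle marks Neat1, which had 0 counts in knockout, at an arbitrary height. Pcx at 3.72 and Frmd8 at -4.54 stand apart, and the other 138 genes shown, Neat1 left out, run from -1.29 to 1.98.

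The sequences before the starts of Pcx and Frmd8 are shown because these protein-coding genes, on the same stretch of chromosome 19, were called in opposite directions; CpG dinucleotides are in capitals, 5′ to 3′ on the gene's strand, from RefSeq promoters on GRCm38.p6. The Frmd8 stretch runs outside the annotated gene at chr19:5875270-5875458, minus strand, with 15 CpG in 189 bases. Its full window of 250 bases, which reaches into the annotated gene, held 22 CpG. The Pcx stretches precede its distal start, chr19:4510222-4510471, plus strand, with 16 CpG, and its second start, chr19:4594069-4594318, plus strand, with 4 CpG, each in 250 bases. Over 32851 RefSeq promoters, the 250 bases before the start held a median of 6 CpG, with quartiles of 2 and 16.
Frmd8: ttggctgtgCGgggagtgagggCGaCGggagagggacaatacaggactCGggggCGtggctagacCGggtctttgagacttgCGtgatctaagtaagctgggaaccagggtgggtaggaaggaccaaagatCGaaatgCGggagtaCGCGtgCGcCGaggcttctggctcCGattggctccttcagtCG
Pcx distal start: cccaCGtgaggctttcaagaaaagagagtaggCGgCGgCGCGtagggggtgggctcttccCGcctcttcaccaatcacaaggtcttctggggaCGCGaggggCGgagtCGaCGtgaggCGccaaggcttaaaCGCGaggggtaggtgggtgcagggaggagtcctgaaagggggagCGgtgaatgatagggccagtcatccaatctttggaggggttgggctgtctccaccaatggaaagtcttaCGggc
Pcx second start: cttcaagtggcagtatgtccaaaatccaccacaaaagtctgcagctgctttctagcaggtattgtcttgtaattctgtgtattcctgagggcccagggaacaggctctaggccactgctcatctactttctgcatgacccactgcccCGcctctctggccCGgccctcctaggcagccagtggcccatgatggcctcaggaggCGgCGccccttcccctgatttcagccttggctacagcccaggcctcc
The counts do not separate transcripts by start, so which Pcx start was used is not known from these files. The 250 bases before the start were searched on both strands for AGGTCA, the half-site letters of many nuclear receptors, which 14.0% of promoters hold, and for TGACTCA, the AP-1 letters, which 4.46% hold. Of the 13 called genes with a RefSeq promoter, 0 held the first and 1 held the second, before a second start of Spata6. These matches describe the letters of these windows only.

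Msln and Enpp2 also fell with each guide taken alone. Msln, the surface glycoprotein mesothelin, had 0.472, 1.03 and 0.778 CPM in sgNcor1-1 and 1.07, 1.85 and 1.15 CPM in sgNcor1-2, against 10.1, 12.4 and 15.1 CPM in sgCtrl. All knockout libraries were low, those of sgNcor1-1 a little lower than those of sgNcor1-2. Its fold change was -3.63 on the log2 scale (SE 0.31, adjusted p = 0.00177, edgeR), with -4.06 for sgNcor1-1 and -3.20 for sgNcor1-2. Enpp2, autotaxin, the secreted enzyme that makes lysophosphatidic acid, had 0.202, 0.228 and 0.156 CPM in sgNcor1-1 and 0.283, 0.0824 and 0.249 CPM in sgNcor1-2, against 3.54, 4.86 and 4.77 CPM in sgCtrl. The groups were far apart at a low level, and the fold change was -4.42 on the log2 scale (SE 0.39, adjusted p = 0.00177, edgeR). In the lysophosphatidic acid list it was the 1 called by edgeR of 11 tested (median 0.05; 0.144% of all genes were called lower), while DESeq2 called 2 lower. The receptor gene Lpar5 stood at -2.02 (SE 0.50, adjusted p = 0.184, edgeR).

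Nrp2, the neuropilin 2 co-receptor for semaphorins and VEGF-C, had 2.23, 1.20 and 1.01 CPM in sgNcor1-1 and 1.45, 1.36 and 0.947 CPM in sgNcor1-2, against 6.31, 6.81 and 5.67 CPM in sgCtrl. The groups did not overlap (log2 fold change -2.19, SE 0.31, adjusted p = 0.0313, edgeR). It was the 1 called of 22 neuropilins, plexins and semaphorins, whose median was 0.02, beside 0.144% called lower over all genes. Lpl, the lipoprotein lipase that releases fatty acids from triglyceride-rich lipoproteins, had 44.3, 32.5 and 44.8 CPM in sgNcor1-1 and 46.8, 43.5 and 37.2 CPM in sgNcor1-2, against 73.3, 91.8 and 104 CPM in sgCtrl. Every sgCtrl library was above every knockout library, by the least inside number 1 (-0.69, -1.29 and -1.35 inside numbers 1, 2 and 3). The fold change was -1.11 on the log2 scale (SE 0.17, adjusted p = 0.0423, edgeR). Pag1, the membrane adaptor that recruits the kinase Csk, had 2.23 to 3.21 CPM in knockout and 5.57 to 12.5 CPM in sgCtrl (log2 fold change -1.81, SE 0.28, adjusted p = 0.0439, edgeR). Bgn, the matrix proteoglycan biglycan, had 0.228 to 0.506 CPM in knockout and 2.60 to 3.28 CPM in sgCtrl (log2 fold change -3.02, SE 0.37, adjusted p = 0.0132, edgeR).

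Bgn was the 1 called by edgeR of 26 tested genes of matrix and crosslinking, beside 0.144% called lower over all genes. DESeq2 called 3 lower, and at an unadjusted p under 0.05 in edgeR 6 lay lower and 1 higher. The list median was -0.10, with -0.14, -0.27 and -0.23 inside numbers 1, 2 and 3, and 6 of 26 (23.1%, beside 12.9% of all genes) had all 6 differences below 0. Loxl2, an enzyme that crosslinks collagen, had 1.08, 0.571 and 0.506 CPM in sgNcor1-1 and 1.07, 0.659 and 1.05 CPM in sgNcor1-2, against 2.51, 3.75 and 4.67 CPM in sgCtrl, and missed the threshold (log2 fold change -2.15, SE 0.37, adjusted p = 0.0733, edgeR). Lamb1, a laminin chain, stood at -1.46 (SE 0.34, adjusted p = 0.173, edgeR).

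Krt6a, Krt90, Ctsh, Esyt1 and Gfod1 fell too. Krt6a and Krt90, type II keratins on chromosome 15, had 0.150 to 0.440 CPM and 0.0571 to 0.220 CPM in knockout, against 1.28 to 2.39 CPM and 1.20 to 2.36 CPM in sgCtrl. Their log2 fold changes were -2.78 (SE 0.43, adjusted p = 0.0439) and -3.50 (SE 0.43, adjusted p = 0.0134, edgeR), opposite in sign to that of Krt23. Ctsh, the lysosomal protease cathepsin H, had 19.1, 12.0 and 16.1 CPM in sgNcor1-1 and 18.4, 14.7 and 14.8 CPM in sgNcor1-2, against 49.2, 41.5 and 43.4 CPM in sgCtrl. It differed by a like amount inside each number (-1.39, -1.63 and -1.49), and the pooled fold change was -1.49 on the log2 scale (SE 0.18, adjusted p = 0.0132, edgeR). Esyt1, extended synaptotagmin 1, a tether of the endoplasmic reticulum to the plasma membrane, had 9.24 to 17.7 CPM in knockout and 37.2 to 46.2 CPM in sgCtrl (log2 fold change -1.67, SE 0.24, adjusted p = 0.0299, edgeR). Gfod1, named for its oxidoreductase domain, had 27.5 to 32.1 CPM in knockout and 54.5 to 62.0 CPM in sgCtrl, the smallest called fold at -0.95 (SE 0.13, adjusted p = 0.0269, edgeR).

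Some called genes rested on few counts. Repin1, a zinc finger protein, had 0 to 0.194 CPM in knockout and 3.18 to 4.66 CPM in sgCtrl (log2 fold change -5.03, SE 0.53, adjusted p = 0.00610, edgeR). Spata6, a protein of the sperm neck, had 0.0997 to 0.405 CPM in knockout and 3.28 to 5.46 CPM in sgCtrl (-4.36, SE 0.47, adjusted p = 0.00610, edgeR). Gstt2, a theta-class glutathione transferase, had 5 counts over the 6 knockout libraries and 79 over the 3 controls (-5.31, SE 0.69, adjusted p = 0.0179, edgeR). Fmr1nb, known in humans as a cancer-testis antigen, had 1 count over the knockout libraries and 165 over the controls, a ratio of levels of 0.00242 (95% exact interval 6.1e-05 to 0.0137, counting error only; adjusted p = 0.00610, edgeR). Of the 25 called genes, 16 had a mean of at least 5 CPM in either group.

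Gvin1, a very large interferon-inducible GTPase, had 3.98, 4.05 and 3.42 CPM in sgNcor1-1 and 1.73, 3.67 and 2.84 CPM in sgNcor1-2, against 22.2, 18.3 and 16.8 CPM in sgCtrl. Its fold change was -2.56 on the log2 scale (SE 0.25, adjusted p = 0.00373, edgeR). Its family member Gvin2 had 0.438, 1.20 and 2.57 CPM in sgNcor1-1 and 1.70, 4.90 and 3.94 CPM in sgNcor1-2, against 19.2, 14.8 and 14.5 CPM in sgCtrl, and did not pass (-2.87, SE 0.47, adjusted p = 0.0618, edgeR). Both had count values that were not whole, since reads that fit several genes are divided among them, so the share of each in the pair is uncertain. The same holds for 5 other called genes, A730056A06Rik, Krt6a, Lpl, Repin1 and Slc25a10. Gvin1 was the 1 called of 47 interferon-stimulated and guanylate-binding genes, beside 0.144% called lower over all genes. Their median was -0.21, and -0.14, -0.62 and 0.05 inside numbers 1, 2 and 3, so the median of number 3 did not share the direction. All 6 differences were below 0 for 12 of the 47 (25.5%, beside 12.9% of all genes tested). They were all above 0 for 2 (4.26%, beside 11.2% of all genes tested). Ddx58, the RNA sensor RIG-I, stood at -0.51 (SE 0.16, adjusted p = 0.282), and Ifit2, an interferon-induced RNA-binding protein, at -1.11 (SE 0.38, adjusted p = 0.329, edgeR). Ifit2 passed with a replicate block, as the last section gives.

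A second reading asked which genes differed by 2-fold or more in all 6 differences inside the numbers, in one direction, with a mean of at least 5 CPM in a group. This is a description with no test. There were 24 such genes (0.193% of those tested), 7 higher (0.0562%) and 17 lower (0.136%). Of the 24, 12 were also called and 12 were not. The called ones were Adcy8, A730056A06Rik, Mettl7b and Pcx, higher, and Ctsh, Esyt1, Frmd8, Gvin1, Msln, Neat1, Nrp2 and Pag1, lower. The remaining 13 called genes had 6 differences of one sign but missed the 2-fold size or the level. With numbers 2 and 3 only, 43 genes met the rule.

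**Figure D3:**
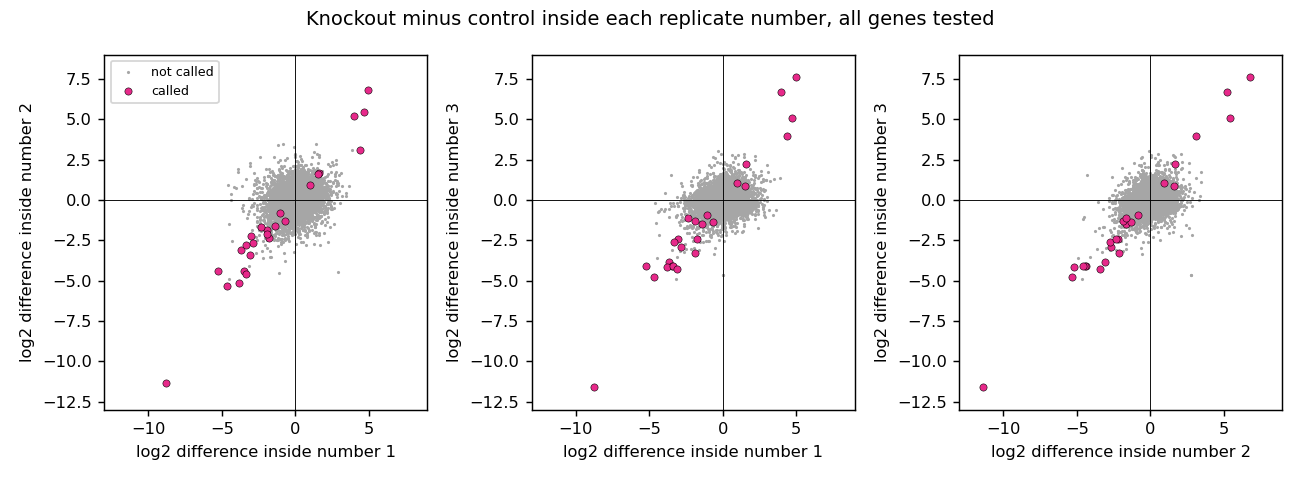
Log2 difference, knockout minus control, inside 1 replicate number against that inside another, for all 12458 genes tested (mean over both guides). Pink points are the 25 called genes, as with Adcy8 at 4.70, 5.45 and 5.07, and grey points are genes not called. The groups of the called genes do not overlap, which fixes 1 sign in all 3 numbers. Over all genes tested the correlation is weak, with Pearson r of 0.28 to 0.32.

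Of the 12 genes that met the rule inside the numbers without a call, 3 were higher in knockout. Tns4, tensin 4, which sits at focal adhesions, had 291, 79.2 and 97.7 CPM in sgNcor1-1 and 261, 113 and 119 CPM in sgNcor1-2, against 32.2, 30.0 and 33.0 CPM in sgCtrl. The number 1 libraries of both guides were the highest, and no knockout library overlapped the controls (log2 fold change 2.34, SE 0.48, adjusted p = 0.136, edgeR). Ephx2, the soluble epoxide hydrolase of fatty acid epoxides, had 18.7, 8.28 and 9.60 CPM in sgNcor1-1 and 19.1, 9.60 and 9.23 CPM in sgNcor1-2, against 2.82, 3.15 and 4.13 CPM in sgCtrl (1.88, SE 0.39, adjusted p = 0.136, edgeR). Gdpd3, a lysophospholipase D, had 6.79 to 22.6 CPM in knockout and 2.62 to 4.18 CPM in sgCtrl (1.87, SE 0.48, adjusted p = 0.199, edgeR).

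The other 9 were lower, Gvin2 and genes of Wnt ligands among them. Wnt6 had 7.22, 1.71 and 3.03 CPM in sgNcor1-1 and 8.21, 3.67 and 3.79 CPM in sgNcor1-2, against 32.1, 12.1 and 20.4 CPM in sgCtrl (log2 fold change -2.23, SE 0.47, adjusted p = 0.136, edgeR). Wnt5a had 7.42, 4.22 and 4.90 CPM in sgNcor1-1 and 6.92, 4.00 and 3.39 CPM in sgNcor1-2, against 29.6, 11.1 and 13.2 CPM in sgCtrl (-1.80, SE 0.37, adjusted p = 0.136, edgeR). Both were highest in number 1 within each group, and the groups did not overlap. Flrt3, an adhesion protein that binds latrophilins, stood at -1.99 (SE 0.41), Peli2, a Pellino ubiquitin ligase, at -1.91 (SE 0.39), Klf12, a transcriptional repressor, at -1.89 (SE 0.33) and Adgrg1, the adhesion receptor GPR56, at -1.57 (SE 0.38), with adjusted p of 0.136, 0.136, 0.0824 and 0.180 (edgeR). For Cp, the ferroxidase ceruloplasmin, and Plat, the tissue plasminogen activator, the groups overlapped when the numbers were ignored: Plat had 36.7 and 34.0 CPM in sgNcor1-1 1 and sgNcor1-2 1, against 35.5 CPM in sgCtrl 3, although its difference was -1.13, -1.68 and -1.69 inside numbers 1, 2 and 3.

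Most genes of lipid synthesis had positive log2 fold changes, and 0 of them were called by edgeR without a replicate block (0.0562% of all genes were called higher). With the block several of those named here passed, as the last section gives. At an unadjusted p under 0.05, 11 of 23 fatty acid genes and 8 of 25 cholesterol genes lay higher and 0 lower. DESeq2 called 3 and 1 of them, all higher, and limma-voom 0. In the fatty acid synthesis list 22 of 23 tested members were above 0, with a median of 0.54, beside 0.02 over all genes tested. The median was 0.90, 0.49 and 0.34 inside numbers 1, 2 and 3. All 6 differences were above 0 for 16 of the 23 (69.6%, beside 11.2% of all genes tested). Acaca, the carboxylase that makes malonyl-CoA, had 119, 98.5 and 92.0 CPM in sgNcor1-1 and 102, 97.7 and 84.3 CPM in sgNcor1-2, against 51.8, 54.1 and 65.2 CPM in sgCtrl. No knockout library overlapped the controls, yet the log2 fold change of 0.79 (SE 0.15) missed the threshold (adjusted p = 0.126, edgeR). Srebf1, the SREBP-1 regulator of lipogenesis, had 323, 376 and 341 CPM in sgNcor1-1 and 321, 429 and 357 CPM in sgNcor1-2, against 148, 217 and 244 CPM in sgCtrl (0.82, SE 0.19, adjusted p = 0.169, edgeR). Fads2, a desaturase, stood at 1.31 (SE 0.32) and the elongase gene Elovl6 at 0.77 (SE 0.24), with adjusted p of 0.182 and 0.294 (edgeR).

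The cholesterol synthesis list varied with the number. All 25 of its genes had positive pooled log2 fold changes, with a median of 0.59, but the median was 1.25, 0.48 and 0.02 inside numbers 1, 2 and 3. All 6 differences were above 0 for 9 of the 25 (36.0%). Sqle, squalene epoxidase, had 417, 394 and 314 CPM in sgNcor1-1 and 409, 403 and 328 CPM in sgNcor1-2, against 201, 209 and 276 CPM in sgCtrl. Each knockout library was above each control, with the least gap in number 3 (0.72, SE 0.17, adjusted p = 0.177, edgeR). Sc5d, a sterol desaturase, stood at 0.45 (SE 0.13), the sterol reductase gene Tm7sf2 at 1.25 (SE 0.41) and Pmvk, phosphomevalonate kinase, at 1.24 (SE 0.41), with adjusted p of 0.254, 0.317 and 0.320 (edgeR).

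Targets of LXR, the oxysterol receptor that NCOR1 binds, differed among themselves. Of 16 tested, 12 were above 0 with a median of 0.47, and the median was 0.68, 0.20 and 0.42 inside numbers 1, 2 and 3. Without a replicate block, the 1 member called by edgeR was Lpl, which fell (0.144% of all genes were called lower). DESeq2 called 2 members higher and 1 lower and limma-voom 0, and at an unadjusted p under 0.05 in edgeR 5 lay higher and 1 lower. Lpcat3, a phospholipid acyltransferase, had 233, 162 and 152 CPM in sgNcor1-1 and 245, 203 and 153 CPM in sgNcor1-2, against 107, 93.8 and 122 CPM in sgCtrl, and did not pass (0.83, SE 0.21, adjusted p = 0.192, edgeR). Fasn, the fatty acid synthase, stood at 0.81 (SE 0.25, adjusted p = 0.294, edgeR). In the list of lipoprotein lipase and its partners, whose median was 0.47, Lmf2, a factor of the lipase maturation family, stood at 0.65 (SE 0.16, adjusted p = 0.184, edgeR), while Lpl fell. Lmf2 passed with the block, as the last section gives.

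**Figure D4:**
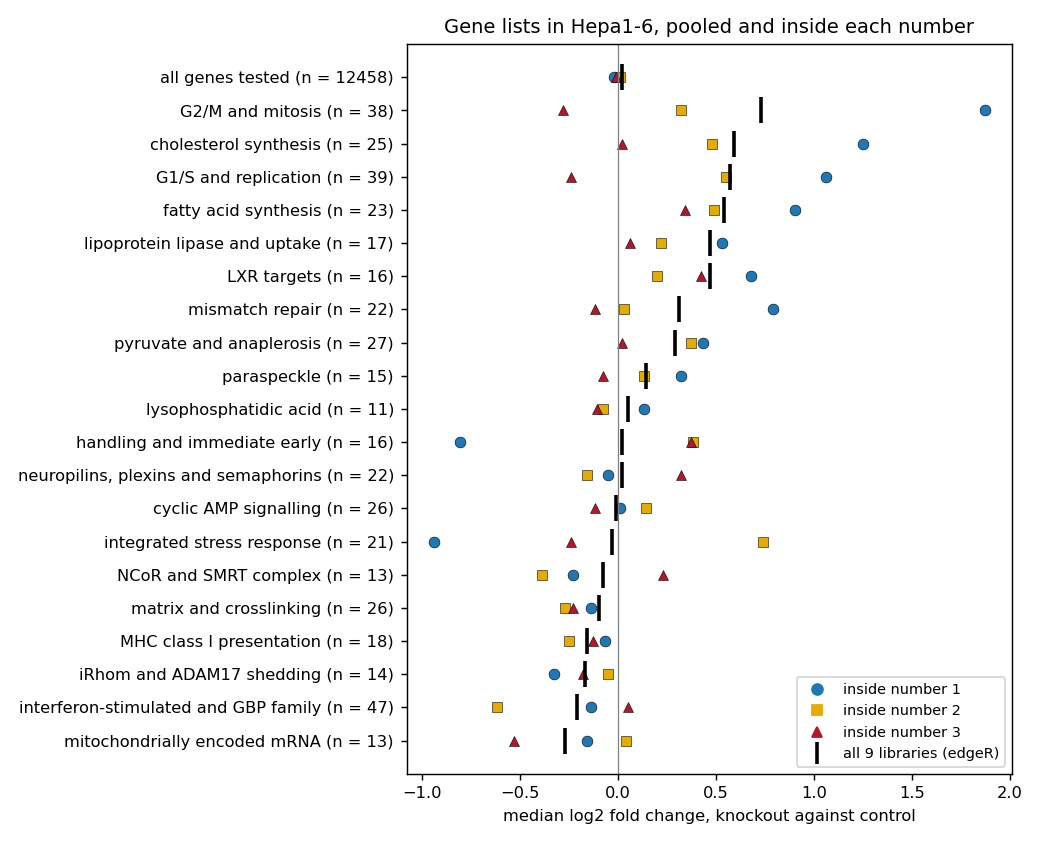
Median log2 fold change, knockout against control, of each gene list over all 9 libraries (bar) and inside replicate numbers 1, 2 and 3 (symbols), with the number of genes tested. Fatty acid synthesis stays above 0 in all 3 numbers (0.90, 0.49 and 0.34), whereas G2/M and mitosis runs from 1.87 inside number 1 to -0.28 inside number 3.

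Cell cycle medians differed between the numbers. All 38 tested genes of G2/M and mitosis and all 39 of G1/S and replication had positive pooled log2 fold changes. Of these genes edgeR called 0 in either list, beside 0.201% of all genes tested. At an unadjusted p under 0.05, 6 and 11 of them lay higher, and DESeq2 called 0 and 1, limma-voom 0. The G2/M median was 0.73 over all libraries, and 1.87, 0.32 and -0.28 inside numbers 1, 2 and 3. The G1/S median was 0.57, and 1.06, 0.55 and -0.24 inside the numbers. The sign thus turned inside number 3 in both lists, and all 6 differences were above 0 for only 3 of 38 and 4 of 39 genes (7.89% and 10.3%, beside 11.2% of all genes). Ccnb2, a mitotic cyclin, had 66.7, 27.5 and 28.2 CPM in sgNcor1-1 and 69.2, 30.2 and 29.1 CPM in sgNcor1-2, against 13.5, 17.7 and 24.5 CPM in sgCtrl (1.17, SE 0.41, adjusted p = 0.338, edgeR). E2f1, a transcription factor of S phase entry, had 90.1, 84.5 and 58.9 CPM in sgNcor1-1 and 89.7, 82.0 and 65.2 CPM in sgNcor1-2, against 48.6, 41.1 and 51.1 CPM in sgCtrl (0.74, SE 0.19, adjusted p = 0.192, edgeR). The summed G2/M level was 2938 to 7402 CPM in knockout and 1938 to 3536 CPM in sgCtrl. The lipid lists have their highest medians in the same number as the cell cycle lists; the part of the one in the other was not tested.

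Stress and handling genes differed between the numbers as well. The integrated stress response list had a pooled median of -0.03 over 21 genes, and -0.94, 0.74 and -0.24 inside numbers 1, 2 and 3. Immediate early genes had a pooled median of 0.02 over 16 genes, and -0.81, 0.38 and 0.37 inside the numbers. The 13 mitochondrially encoded mRNAs had a median of -0.27, and summed to 20446 to 30092 CPM in knockout and 24104 to 29982 CPM in sgCtrl. Over 12197 genes the log2 fold change had a Spearman correlation of -0.26 with the longest transcript length, and -0.17, -0.26 and -0.09 inside numbers 1, 2 and 3; shorter transcripts lay higher in knockout. This is a description across genes. The part of transcript length, handling or cell cycle state in the called genes was not tested.

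Mismatch repair, which the series title names, gave 0 calls with edgeR without a replicate block (0.201% of all genes were called). With the block Mlh3 passed, as the last section gives. At an unadjusted p under 0.05, 2 members lay higher and 1 lower, DESeq2 called 1 (lower) and limma-voom 0. Of 22 tested genes of mismatch repair and its replication factors, 15 were above 0, with a median of 0.31, and 0.79, 0.03 and -0.12 inside numbers 1, 2 and 3. Mlh3, a MutL homologue with a role in meiosis, had 2.16, 2.00 and 2.61 CPM in sgNcor1-1 and 1.98, 2.76 and 3.04 CPM in sgNcor1-2, against 9.74, 4.46 and 5.22 CPM in sgCtrl. All knockout libraries lay below all controls, of which sgCtrl 1 was the highest. The log2 fold change of -1.42 (SE 0.31) missed the threshold (adjusted p = 0.148, edgeR), and it was -2.19, -0.90 and -0.87 inside the numbers. Subunits of DNA polymerase delta, Pold1 and Pold2, stood at 0.49 (SE 0.18) and 0.79 (SE 0.31), and the clamp loader gene Rfc2 at 0.69 (SE 0.31), with adjusted p of 0.362, 0.392 and 0.464 (edgeR).

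MHC class I presentation genes had a median of -0.16 over 18 genes, with 7 above 0. DESeq2, limma-voom and edgeR without a replicate block called 0 of them, and 2 lay lower at an unadjusted p under 0.05 (edgeR). Over all genes tested, edgeR called 0.201%, and 11.1% reached that unadjusted level. With the block B2m passed in edgeR, as the last section gives. The medians were -0.07, -0.25 and -0.13 inside the numbers, and 4 of 18 (22.2%, beside 12.9% of all genes) had all 6 differences below 0. B2m, the light chain of MHC class I, had 277, 278 and 484 CPM in sgNcor1-1 and 291, 292 and 392 CPM in sgNcor1-2, against 506, 521 and 503 CPM in sgCtrl. The knockout libraries numbered 3 came nearest to the controls (-0.61, SE 0.21, adjusted p = 0.324, edgeR). Nlrc5, the transactivator of MHC class I genes, stood at -0.70 (SE 0.27, adjusted p = 0.384, edgeR).

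Other members of the NCoR and SMRT complex did not pass the test either. The 13 tested, Ncor1 included, had a median of -0.08, with 4 above 0. DESeq2, limma-voom and edgeR without a replicate block called 0 of them, and 2 lay lower at an unadjusted p under 0.05 (edgeR). Over all genes tested, edgeR called 0.201%, and 11.1% reached that unadjusted level. With the block Ncor1 and Hdac9 passed in edgeR, as the last section gives. Hdac3, the catalytic deacetylase, had 88.8, 80.7 and 77.7 CPM in sgNcor1-1 and 89.8, 78.7 and 73.6 CPM in sgNcor1-2, against 60.4, 70.6 and 71.5 CPM in sgCtrl (0.27, SE 0.14, adjusted p = 0.503, edgeR). Hdac9, a class IIa deacetylase, had 0.114 to 0.549 CPM in knockout and 0.696 to 1.13 CPM in sgCtrl (-1.79, SE 0.43, adjusted p = 0.174, edgeR). Zbtb33, which encodes the methyl-DNA-binding protein Kaiso, stood at -0.52 (SE 0.26, adjusted p = 0.507, edgeR).

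Finally, the called genes were set against the same guides in B16, in 1 fit of all 18 libraries with a contrast of the knockout effect in Hepa1-6 minus that in B16. Of 14044 genes tested in it, 25 (0.178%) differed between the lines. Ncor1 RNA averaged 295 CPM in B16 knockout and 307 CPM in B16 sgCtrl. Its log2 fold change was -0.06 (SE 0.18) in B16 and -0.61 (SE 0.18) in Hepa1-6 in this fit. The difference between the lines did not pass (-0.55, SE 0.26, adjusted p = 0.719, edgeR). The 25 genes called in Hepa1-6 were chosen by their effect there, which favours a difference. Only 14 of them had enough counts in B16 to compare, at least 931 over its 9 libraries, while the other 11 had 20 or fewer. Of the 14, 10 differed between the lines. Frmd8 averaged 114 CPM in B16 knockout and 110 CPM in B16 sgCtrl libraries, a log2 fold change of 0.06 (SE 0.31) there, and the difference from Hepa1-6 was -4.60 (adjusted p = 5.84e-05, edgeR). Pcx averaged 41.4 CPM in B16 knockout and 48.5 CPM in B16 sgCtrl, with a difference of 3.96 (adjusted p = 2.39e-05, edgeR). Neat1 averaged 180 CPM in B16 knockout and 188 CPM in B16 sgCtrl, and Enpp2, low in Hepa1-6, averaged 915 CPM in B16 knockout and 1060 CPM in B16 sgCtrl. Nrp2 had a log2 fold change of 1.16 (SE 0.37) in B16, opposite in sign to Hepa1-6, and the difference was -3.34 (adjusted p = 0.00807, edgeR). Pag1, Gstt2 and Gfod1 stood at 1.04 (SE 0.45), 0.73 (SE 0.33) and 0.475 (SE 0.40) in B16, also opposite in sign to Hepa1-6. For Gfod1, Mlph, Pag1 and Slc25a10 the difference between the lines did not pass (adjusted p = 0.608, 0.971, 0.128 and 0.570, edgeR).

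**Figure D5:**
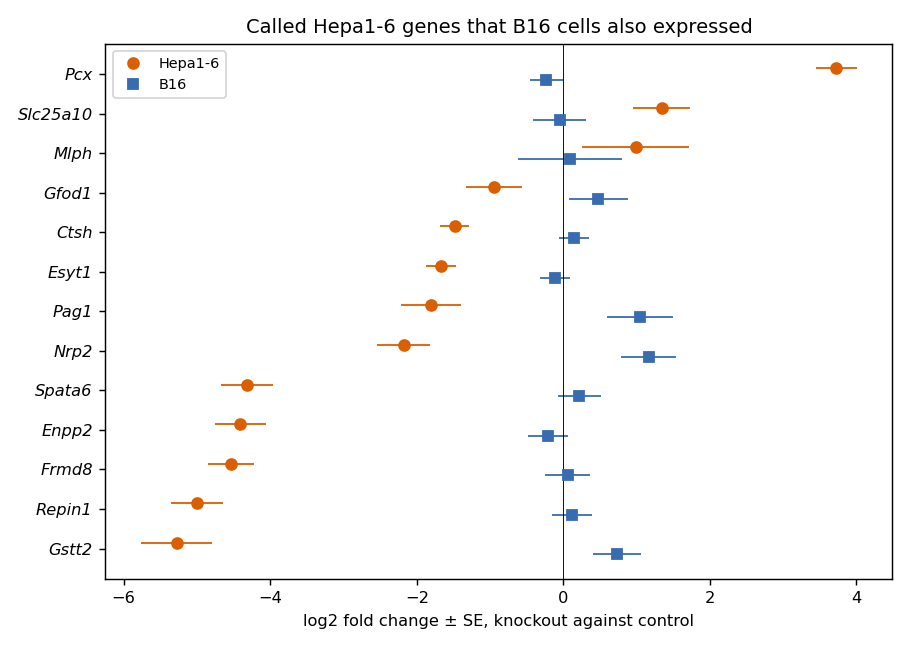
Log2 fold change with SE, knockout against control, from the fit of all 18 libraries, in Hepa1-6 (circles) and B16 (squares), for 13 called Hepa1-6 genes with at least 931 counts in B16; Neat1, at 0 counts in Hepa1-6 knockout, is left out. In B16 most of the values lie near 0, as with Frmd8 at 0.06 and Pcx at -0.23. Nrp2 lies at 1.16, Pag1 at 1.04, Gstt2 at 0.73 and Gfod1 at 0.475.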

How the data were processed

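Polyadenylated RNA of 9 Hepa1-6 libraries was analysed, with 9 B16 libraries of the same series for 1 comparison. The submitters' processing notes list FastQC 0.12.1, Trim Galore 0.6.7, Bowtie2 2.2.5 and RSEM 1.2.8 and the build mm10. No annotation version was found in the sources used here. The authors deposited 1 table of expected counts per line with 32015 gene symbols. RSEM divides reads that fit several genes, and 7.87% of the Hepa1-6 values and 7.19% of the B16 values were not whole, so all were rounded first. The sources used here do not say whether counting used strand, so reads of overlapping or antisense genes cannot be told apart. Coordinates and promoter sequences come from RefSeq on GRCm38.p6, on which 98.9% of the symbols had 1 position.

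Tests used the quasi-likelihood method of edgeR (version 4.0.16, under R 4.3.3; robust option, its filter on low counts, TMM scaling, 1 mean per guide). Knockout was the mean of both guides minus sgCtrl. Benjamini-Hochberg adjustment ran over the 12458 genes tested, and adjusted p under 0.05 was called. Library totals of 17689324 to 30819681 counts set the precision, and intervals and floors of 3 counts cover counting error only. Differences inside a number used log2 CPM with a prior count of 2. The closest pair of libraries, sgNcor1-1 1 and sgNcor1-2 1, differed by a chi-square of 11.62 per degree of freedom, more than sampling noise, so none was counted as a duplicate.

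Named genes were Ncor1, all called genes, up to 10 rises and 10 falls that held inside every number, up to 4 members of each list by smallest p, and the neighbours of called genes that lie close together. Apoa1, Ttr, Serpina1a, Ahsg, Afp, Dcn, Cd68, Cd248, Tmem151a, Wnt5a, Cp, Adgrg1 and Plat were named after their values were seen. The members, lists and rules were chosen with earlier results of these data known. Alternatives were DESeq2 1.42.0, voom of limma 3.58.1, other scaling and filters, a replicate block, fits without single libraries or without number 1, and other limits for the differences inside numbers.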

Additional observations from a re-analysis of the deposited data

Results flagged for a closer look

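The knockout effect differed between Hepa1-6 and B16 for 10 genes called in Hepa1-6, tested as the difference of effects in 1 fit of all 18 libraries (edgeR, Benjamini-Hochberg). Differences are Hepa1-6 minus B16 on the log2 scale. They were -4.60 for Frmd8, 3.96 for Pcx, -4.20 for Enpp2, -5.12 for Repin1, -4.54 for Spata6 and -6.01 for Gstt2, with adjusted p-values of up to 1.67e-04. Smaller ones were -1.63 for Ctsh (adjusted p = 0.0261), -1.55 for Esyt1 (adjusted p = 0.0464) and -3.34 for Nrp2 (adjusted p = 0.00807). The fitted difference for Neat1, -14.81 (adjusted p = 1.70e-04), is set by the 0 counts in Hepa1-6 knockout and is no measure of size. These genes were picked for their effect in Hepa1-6. In B16, Ncor1 RNA itself had a log2 fold change of -0.06 (SE 0.18).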

How the results depend on the processing

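In no alternative did a called gene change sign. Calls in knockout against control numbered 25, and DESeq2 made 287, with 94 for sgNcor1-1 and 114 for sgNcor1-2; all 25 were among the 287. With a replicate block edgeR made 525 calls (184 higher, 341 lower), again with all 25 among them and all 12 genes that differed inside every number without a call, with 81 for sgNcor1-1 and 100 for sgNcor1-2. The block brought Ncor1 past the threshold (adjusted p = 0.0453, edgeR). The edgeR counts of called list members are without the block. With it Acaca, Srebf1, Fasn, Lpcat3, Sqle, Sc5d and Pmvk also passed (adjusted p = 0.0173 to 0.0491, edgeR). Fads2, Elovl6 and Tm7sf2 missed (adjusted p = 0.0528 to 0.0818, edgeR). Pdk1, Pklr, Loxl2, Lamb1, Mlh3, B2m, Hdac9, E2f1, Lpar5, Timp3, Lmf2 and Ifit2 passed too (adjusted p = 0.0134 to 0.0472, edgeR). Pold1, Pold2, Rfc2, Nlrc5, Hdac3, Zbtb33, Ccnb2, Ddx58, Tnfrsf1b, Sfpq, Rapgef3, Creb1 and Pde8b missed (adjusted p = 0.0528 to 0.231, edgeR). The numbers were not taken to pair the libraries: deviations from group means of same-numbered libraries correlated at 0.61, 0.05 and 0.38 between sgNcor1-1 and sgCtrl and at 0.59, 0.19 and 0.34 between sgNcor1-2 and sgCtrl, and at 0.91, 0.67 and 0.75 between the guides; 1 pair of the 9 lay at 0.05. The guide difference passed at an unadjusted p under 0.05 for 1 called gene under DESeq2 and 1 under the block. limma-voom made 24 calls (4 higher, 20 lower), 19 of them among the 25. Without a low-count filter there were 28 calls, 23 of them among the 25, and sgNcor1-1 gave 11. Without the 3 libraries numbered 1 there were 33 calls, 15 of them among the 25, with 12 for sgNcor1-1. Leaving out 1 library gave 6 to 19 calls (10, 6 and 7 without sgCtrl 1, 2 and 3; 12 without sgNcor1-1 2, sgNcor1-2 2 or sgNcor1-2 3), 1 to 11 for sgNcor1-1, 1 to 12 for sgNcor1-2 and 0 to 1 for the guide difference. Adcy8, Enpp2, Frmd8, Gvin1, Msln and Pcx were called in all 9 of these fits; Gfod1, Krt6a, Lpl, Mettl7b, Mlph and Pag1 in 0. Genes that differed inside every number went from 24 to 107 at 1.5-fold, 57 at 1 CPM and 43 with numbers 2 and 3 only, chosen after seeing the data. The line difference gave 236 calls with the block, 107 with DESeq2 and 15 to 30 with 1 library left out. The causes were not tested. Depth limits the genes near 0 counts.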
